A study of Saccharomyces cerevisiae with 11 samples.

Results

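The genes described here encode the subunits of the RNA polymerases of the yeast nucleus, RNA polymerase I (Pol I), II (Pol II) and III (Pol III). The 31 genes were chosen by function, as the genes named RPA, RPB and RPC with RPO21, RPO26, RPO31 and RET1. Of these, 7 encode subunits of Pol I alone, 7 of Pol II alone and 10 of Pol III alone, and 7 are shared between enzymes. A transcript leader, the stretch of mRNA between the capped 5′ end and the start codon, was called for 29 of them in at least 1 library, beside 4551 ORFs in all. These 29 of 31 compare with 75.8% of the 6002 protein-coding ORFs in the gene table.

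Pol I transcribes the ribosomal RNA precursor, Pol II the messenger RNAs, and Pol III the transfer RNAs, 5S ribosomal RNA and other small RNAs. Each enzyme has a catalytic core of a pair of large subunits, an assembly platform, a stalk and peripheral subunits, and several small subunits are common to all of them. All of the subunit genes are themselves transcribed by Pol II, so that each mRNA has a cap and a leader.

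Sigma 1278b, known for its filamentous growth, was grown as a MAT a culture with ura3, leu2, trp1 and his3 mutations, and gave 1 TL-seq library made with tobacco acid pyrophosphatase. TL-seq sequences capped 5′ ends, and the pyrophosphatase removes the cap so that an adaptor can be ligated. TATL-seq is the same kind of library made from polysome gradient RNA, here 1 for each of 7 fractions, labelled BY4742, a MAT α strain with his3∆1, leu2∆0, lys2∆0 and ura3∆0. A second Sigma library was mock-treated without pyrophosphatase, and 2 biological replicates of TL-seq were labelled S288C, the laboratory strain from which BY4742 descends. Every culture grew in rich glucose medium and was taken in mid-log phase. Fractions are numbered, but the labels do not say which were light or heavy. Per the labels a HiSeq was used for S288C TL-seq and a Genome Analyzer II for the remaining 9 libraries, so strain and sequencer cannot be told apart in TL-seq.

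Each file gives 1 leader length per gene in nucleotides (nt) and no read counts, so the depth behind a length is unknown and no expression level can be given. Between 204 ORFs, in Sigma without pyrophosphatase, and 3561, in S288C replicate 1, had a call. The mating-type genes checked the strain labels. Calls were made for 3 of 6 a-specific genes in Sigma and for none of 4 α-specific genes. In S288C TL-seq they were made for none of 6 and for 3 of 4. The TATL-seq libraries labelled BY4742 had calls for 4 of 6 a-specific and 2 of 4 α-specific genes. STE2, the α-factor receptor gene of MAT a cells, had 26 nt in all 7 fractions but no call in Sigma. The a-specific genes STE6 and BAR1 had no call in any library. The α-specific gene MF(ALPHA)2 had 287 nt in fraction 1 and 38 to 41 nt in fractions 3 to 7. STE3, also α-specific, had a call in fraction 1 only. With no read counts, these calls do not settle the mating type of the TATL-seq culture. The part of strain or mating type in the subunit gene lengths was not tested.

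**Figure D1:**
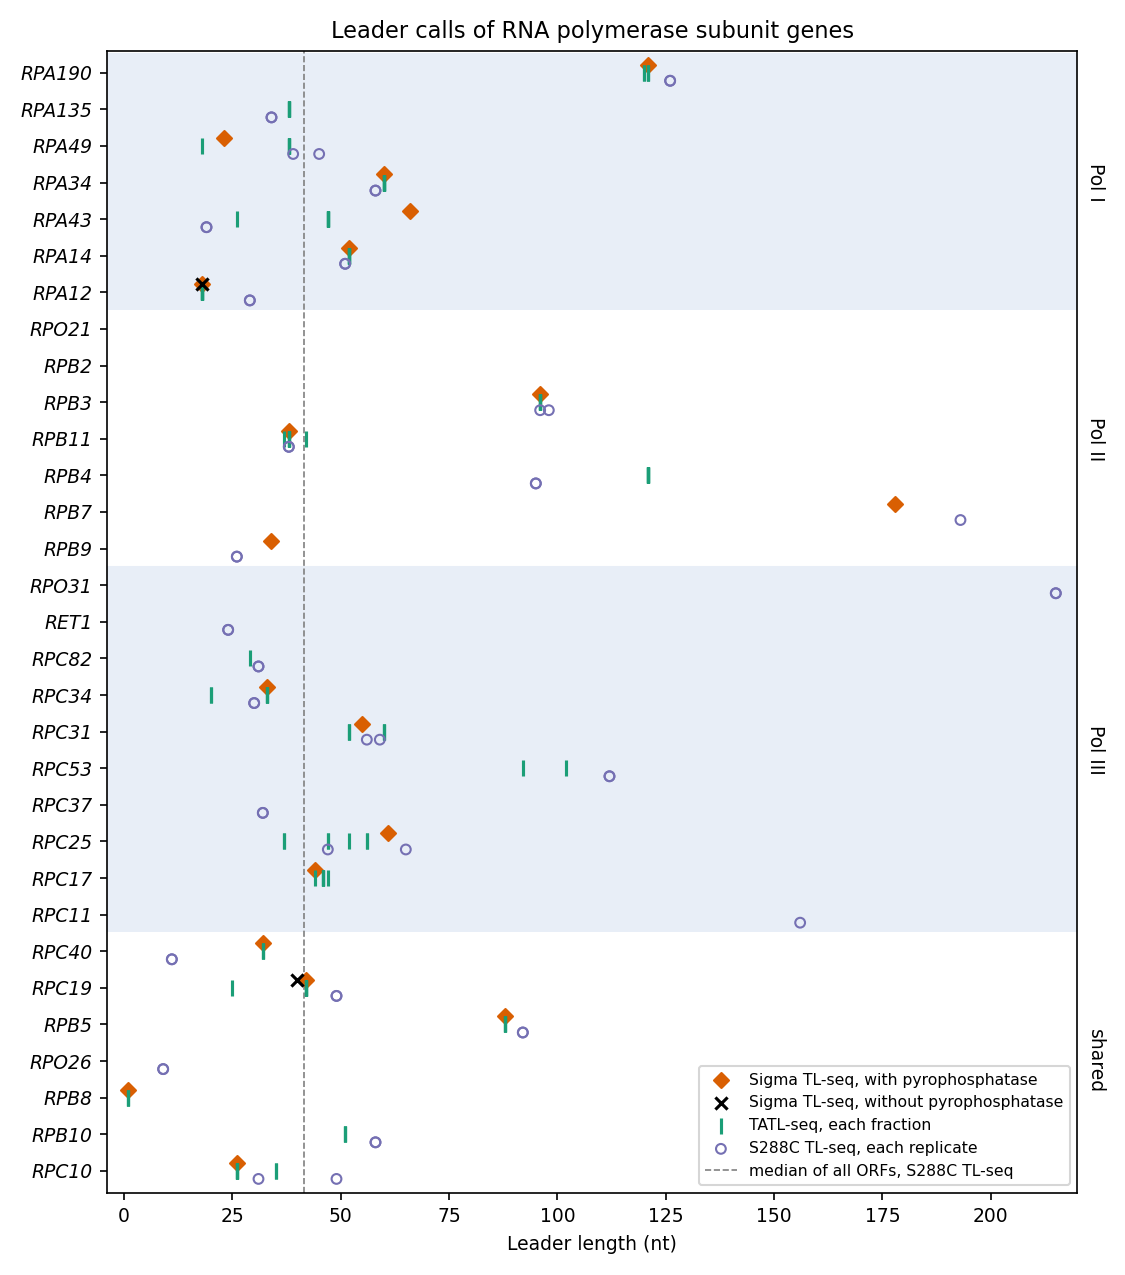
Leader length in nt (horizontal axis) of each of the 31 subunit genes (rows, shaded by enzyme) in each library with a call. Diamonds are Sigma with pyrophosphatase, crosses Sigma without it, vertical ticks the TATL-seq fractions, open circles the S288C replicates, and the dashed line the S288C median of all ORFs at 41.5 nt. RPO21 and RPB2 have no call, and RPO31 has the longest leader at 215 nt.

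The genes of the large catalytic subunits varied in how many libraries gave a call, with too few genes to compare the enzymes. RPA190 (YOR341W), for the largest subunit of Pol I, had 121 nt in Sigma, 121 nt in fractions 3, 4 and 7, 120 nt in the other fractions with a call (1 and 2), and 126 nt in both S288C replicates. All of these lay within 6 nt, well above the S288C median of 41.5 nt over all ORFs. RPA135 (YPR010C), its partner in the active centre, had 38 nt in fractions 2 and 4 to 7 and 34 nt in both S288C replicates. The Pol II counterparts RPO21 (YDL140C) and RPB2 (YOR151C) had no call in any library. RPO31 (YOR116C), for the largest subunit of Pol III, had 215 nt in both S288C replicates, the longest leader of the whole group, and RET1 (YOR207C), for its partner, had 24 nt in both. Neither Pol III gene had a call in Sigma or in any fraction. Of the 6 large-subunit genes, which all span over 3000 bp, 2 had a call in at least 1 fraction, against 28.1% of all ORFs of that span. Of the other 25 subunit genes 20 did, against 63.6% of ORFs of 3000 bp or less. Whether expression or depth accounts for the absent calls was not tested.

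The assembly platform is a heterodimer on which the large subunits are built, RPB3 with RPB11 in Pol II and RPC40 with RPC19 in Pol I and Pol III. RPB3 (YIL021W) had 96 nt in Sigma, 96 nt in fractions 2 to 7, and 96 and 98 nt in the S288C replicates. RPB11 (YOL005C) had 38 nt in Sigma, 37 nt in fraction 1, 38 nt in fractions 2 to 6, 42 nt in fraction 7 and 38 nt in both S288C replicates. The Pol II platform genes thus varied by at most 5 nt over all libraries, but RPB3 had the longer leader throughout. RPC40 (YPR110C) had 32 nt in Sigma, 32 nt in fractions 3, 4 and 7, and 11 nt in both S288C replicates, and the S288C lengths did not overlap the others. RPC19 (YNL113W) had 42 nt in Sigma, 40 nt in Sigma without pyrophosphatase, 25 nt in fraction 1, 42 nt in fractions 2 to 7 and 49 nt in both S288C replicates.

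The stalk binds initiation factors and the emerging RNA. In Pol I it is formed by RPA43 and RPA14. RPA43 (YOR340C) had 66 nt in Sigma, 26 nt in fraction 1, 47 nt in fractions 2 to 7, and 19 nt in both S288C replicates. These were 4 separate lengths, and no library group shared one with another. RPA14 (YDR156W) had 52 nt in Sigma and in all 7 fractions, and 51 nt in both S288C replicates, so that it varied by 1 nt at most. In the Pol II stalk RPB4 (YJL140W) had 121 nt in all 7 fractions and 95 nt in both S288C replicates, with no call in Sigma. RPB7 (YDR404C) had 178 nt in Sigma and 193 nt in S288C replicate 1, and no call elsewhere. Both Pol II stalk genes had leaders above the upper quartile of all ORFs, 70 nt in S288C. In the Pol III stalk RPC25 (YKL144C) had 61 nt in Sigma, 47, 37, 47, 56, 56, 37 and 52 nt in fractions 1 to 7, and 47 and 65 nt in the S288C replicates. The Sigma length lay inside the span of the S288C replicates and above that of the fractions. RPC17 (YJL011C) had 44 nt in Sigma and 46, 47, 46, 46, 46 and 44 nt in fractions 2 to 7, with no call in S288C.

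Peripheral heterodimers that resemble the Pol II factor TFIIF are RPA49 with RPA34 in Pol I and RPC53 with RPC37 in Pol III. RPA34 (YJL148W) had 60 nt in Sigma and in all 7 fractions and 58 nt in both S288C replicates. RPA49 (YNL248C) had 23 nt in Sigma, 18 nt in fraction 2, 38 nt in fractions 3 to 7, and 39 and 45 nt in the S288C replicates. Sigma and fraction 2 were thus low for RPA49, and the other fractions close to S288C. RPC53 (YDL150W) had 102 nt in fraction 1, 92 nt in fraction 2 and 112 nt in both S288C replicates. RPC37 (YKR025W) had 32 nt in both S288C replicates and no call elsewhere.

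The trimer RPC82, RPC34 and RPC31 acts in initiation by Pol III. RPC82 (YPR190C) had 29 nt in fraction 4 and 31 nt in both S288C replicates. RPC34 (YNR003C) had 33 nt in Sigma, 33 nt in fractions 2, 3, 6 and 7 but 20 nt in 1 and 5, and 30 nt in both S288C replicates. RPC31 (YNL151C) had 55 nt in Sigma, 60 nt in fractions 2, 6 and 7, 52 nt in fractions 3 to 5, and 59 and 56 nt in the S288C replicates. For RPC31 the Sigma and S288C lengths all fell between those of the fractions.

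RPA12 and RPC11, with a role in RNA cleavage by Pol I and Pol III, and RPB9, with a role in start-site selection and fidelity of Pol II, are small related subunits. RPA12 (YJR063W) had 18 nt in Sigma, with and without pyrophosphatase, 18 nt in all 7 fractions and 29 nt in both S288C replicates. Here all Genome Analyzer II libraries gave 1 length, apart from that of S288C TL-seq. RPB9 (YGL070C) had 34 nt in Sigma and 26 nt in both S288C replicates. RPC11 (YDR045C) had 156 nt in S288C replicate 1, its only call.

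Of the subunits common to all 3 enzymes, RPB5 (YBR154C) had the longest leader, with 88 nt in Sigma, 88 nt in fractions 4 to 7 and 92 nt in both S288C replicates. RPB10 (YOR210W) had 51 nt in fractions 3 to 5 and 58 nt in both S288C replicates. RPC10 (YHR143W-A), for the subunit also called Rpb12, had 26 nt in Sigma, 35 nt in fractions 3 and 4, 26 nt in the other 5 fractions, and 31 and 49 nt in the S288C replicates. The shortest leaders of the whole group were those of RPB8 and RPO26. RPB8 (YOR224C) had 1 nt in Sigma and in fractions 4 to 6, with no call in S288C, and RPO26 (YPR187W) had 9 nt in both S288C replicates and no call elsewhere. RPO26 is the only gene of the 31 whose genomic span, 544 bp, is not a multiple of 3, and the files do not say how introns were treated.

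The enzymes were then compared by the leaders of their own subunits. In S288C TL-seq the median leader was 42 nt in Pol I (n = 7), 66.5 nt in Pol II (n = 4), 44 nt in Pol III (n = 8) and 44.5 nt in shared subunits (n = 6). The median over the 25 subunit genes called in both replicates was 42 nt, against 41.5 nt over all 3144 such ORFs. Each class spread far more widely than the medians differed, with 19 to 126 nt in Pol I, 26 to 97 nt in Pol II, 24 to 215 nt in Pol III and 9 to 92 nt in shared subunits. In Sigma the medians were 56, 67, 49.5 and 32 nt in the same order of classes, with 44 nt over the 19 subunit genes and 33 nt over all ORFs. In TATL-seq they were 47, 96, 46.5 and 37 nt, with 46.5 nt over the 22 subunit genes and 39 nt over all ORFs. The Pol II median was the highest in each, but it rested on 3 or 4 genes whose lengths overlapped those of every other class, and the difference was not tested. RPB7 entered it in Sigma only.

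**Figure D2:**
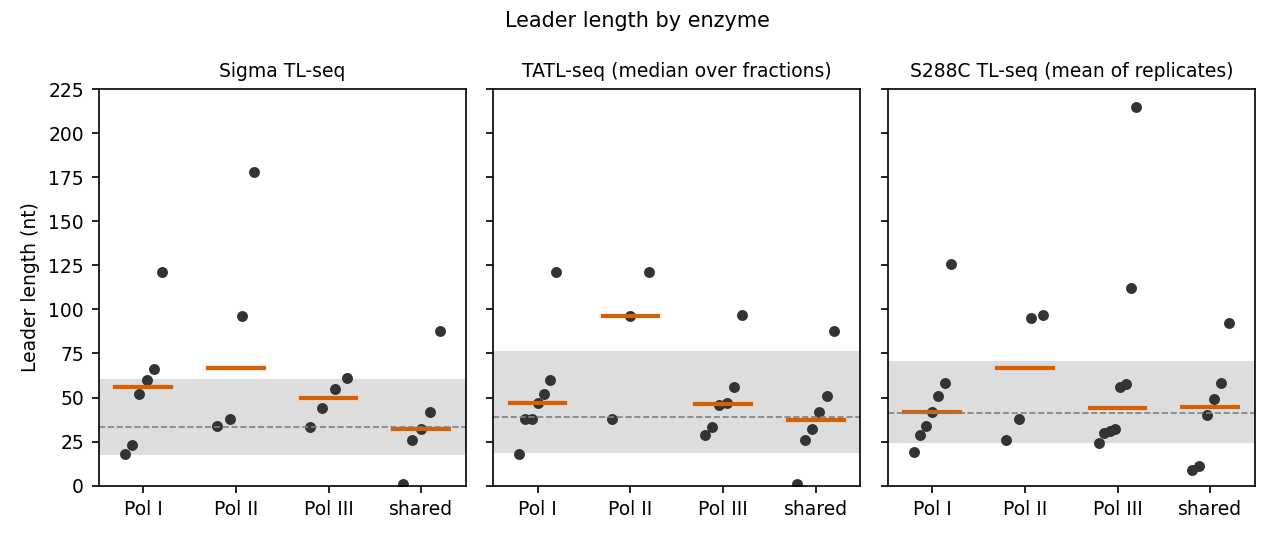
Leader length in nt (vertical axis) of subunits of 1 enzyme or shared, in Sigma TL-seq, in TATL-seq (median over fractions) and in S288C TL-seq (mean of replicates). Points are genes, bars are class medians, the grey band spans the quartiles of all ORFs and the dashed line their median; the classes overlap in every panel.

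In S288C TL-seq 3 of 25 subunit genes reached 100 nt, RPA190, RPC53 and RPO31, against 15.1% of all ORFs. Under 12 nt were 2 of 25, RPC40 and RPO26, against 7.63%. Replicate error was small: 20 of 25 had the same length in both replicates, against 76.2% of all ORFs. RPC25 and RPC10, which both differed by 18 nt, were the 2 of 25 with replicates at least 10 nt apart, against 12.9%. With only 25 genes, these counts lie near the background.

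Sigma was set against S288C by a rule with a threshold of 10 nt: the S288C replicates had to lie that close together, and Sigma had to be longer than both, or shorter than both, by that much. Of 14 subunit genes that could be compared, RPA43 and RPC40 were longer in Sigma, against 13.2% of all 1324 ORFs. RPA49 and RPA12 were shorter, against 27.6%. RPA43 had 66 nt in Sigma and 19 nt ± 0 in S288C (SD, n = 2), a difference of 47 nt, and RPC40 had 32 nt in Sigma and 11 nt ± 0 in S288C, a difference of 21 nt. RPA49 had 23 nt in Sigma and 42 nt ± 4.24 in S288C, and RPA12 had 18 nt in Sigma and 29 nt ± 0 in S288C. By class, 3 of 6 genes of Pol I and 1 of 3 shared genes passed, with 0 of 3 in Pol II and 0 of 2 in Pol III, numbers too small to compare the enzymes, and no test of this was made. The median difference over all 16 subunit genes with both values was −0.5 nt, against −5 nt over 1492 ORFs. No gene could be tested, because Sigma had 1 library. With −4.5 nt subtracted, the median difference over the 1324 ORFs to which the rule applied, RPA12 no longer passed and RPB9, with 34 nt in Sigma and 26 nt in S288C, did.

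TATL-seq, as the median over fractions with a call, was set against S288C TL-seq. The 2 sets differ in method and in sequencer, and the mating-type calls described above do not settle the strain of the TATL-seq libraries. Method, sequencer and strain therefore cannot be told apart here. RPA43, RPB4 and RPC40 were longer in TATL-seq, 3 of 20 subunit genes, against 13.5% of all ORFs. Their lengths were 47, 121 and 32 nt in TATL-seq and 19, 95 and 11 nt in S288C TL-seq. RPA12, RPC53 and RPC10 were shorter, also 3 of 20, against 33.3%, with 18, 97 and 26 nt in TATL-seq and 29, 112 and 40 nt in S288C TL-seq. For RPC53 the TATL-seq length came from 2 fractions, and for RPC10 the S288C value averages 31 and 49 nt. With the median difference of −5 nt over all ORFs subtracted, RPA12 and RPC10 no longer passed.

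Sigma TL-seq was also set against TATL-seq, both from the Genome Analyzer II. They differ in labelled strain and in method, which cannot be told apart here. Of 17 subunit genes 12 had in Sigma exactly the TATL-seq median, against 43.9% of all ORFs: RPA190, RPA34, RPA14, RPA12, RPB3, RPB11, RPC34, RPC40, RPC19, RPB5, RPB8 and RPC10. RPA43 and RPC25 were at least 10 nt longer in Sigma, 2 of 17, against 10.5%, with 66 and 61 nt in Sigma and 47 and 47 nt in TATL-seq. RPA49 was shorter, 1 of 17, against 9.39%, with 23 nt in Sigma and 38 nt in TATL-seq. An equal length was rare in the comparisons with S288C TL-seq. Only RPB11 had the S288C mean in Sigma, 1 of 16, against 1.74% of all ORFs, and only RPB11 had it in TATL-seq, 1 of 20, against 1.84%. The comparisons share libraries with each other and are not independent. Whether strain, method or sequencer underlies the rarity of equal lengths with S288C was not tested.

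**Figure D3:**
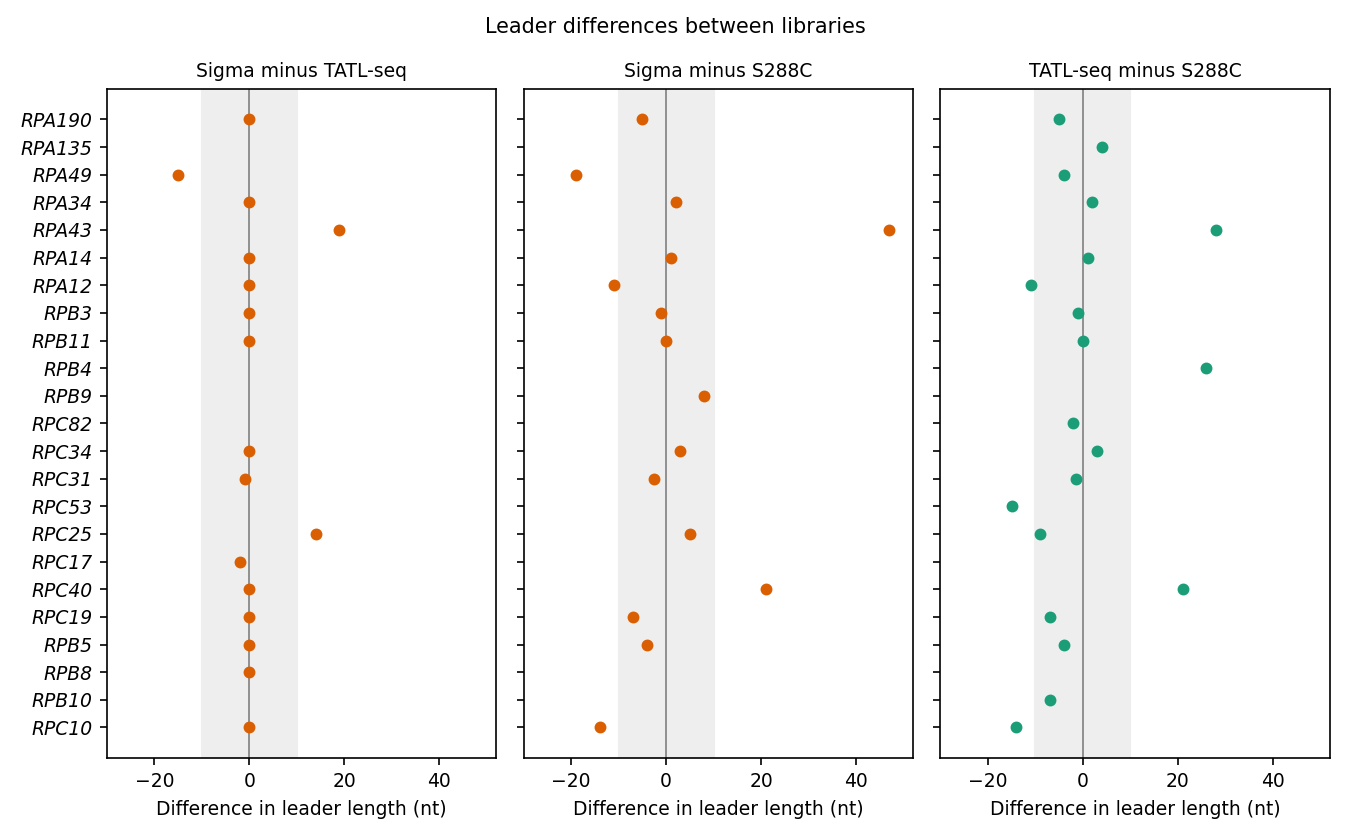
Difference in leader length in nt (horizontal axes) of each subunit gene with both values, for Sigma minus TATL-seq, Sigma minus S288C TL-seq and TATL-seq minus S288C TL-seq. The grey band marks differences within 10 nt; in the left panel 12 of 17 points lie at 0, and RPA43 lies to the right of the band in all 3 panels.

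The gradient fractions allow the leader of a gene to be compared along the gradient. At least 5 fractions had a call for 16 of the 29 subunit genes called in any library, against 45.3% of all such ORFs. They were all 7 genes of Pol I, 3 of 5 in Pol II, 4 of 10 in Pol III and 2 of 7 shared genes, and the difference between enzymes was not tested. In all 7 fractions 9 of the 29 subunit genes with any call were called, against 26.8% of ORFs with any call, and in no fraction 7 of 29, against 20.1%. Over the 16 subunit genes called in at least 5 fractions, 6 had a single length throughout, against 32.8% of all ORFs. These were RPA135, RPA34, RPA14, RPA12, RPB3 and RPB4. A range of 10 nt or more was found for 5 of 16, against 30.9%. They were RPA43 (26 to 47 nt), RPA49 (18 to 38 nt), RPC25 (37 to 56 nt), RPC19 (25 to 42 nt) and RPC34 (20 to 33 nt).

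In RPA43 and RPC19 the range came from fraction 1 alone and in RPA49 from fraction 2 alone. The remaining fractions with a call gave 1 length for each gene. RPA49 had no call in fraction 1. RPC34 had its short length in fractions 1 and 5, and RPC25 changed among 4 lengths with no order. RPA43, RPC34 and RPC19 were at least 10 nt shorter in fraction 1 than the median of the others, 3 of 11 subunit genes, against 8.5% of all ORFs. None of 11 was longer, against 6.54%. Fraction 1 also had the fewest ORF calls of the fractions, 2081 against 2412 to 2483 in the others. It had the most calls for names other than ORFs, 45 against 5 to 22. Whether this bears on the shorter lengths was not tested. Without fraction 1, 3 subunit genes kept a range of 10 nt or more, RPA49, RPC34 and RPC25, and without fraction 2 RPA49 no longer did. Each fraction is 1 library, so the error of a fraction is unknown, and S288C replicates of RPC25 lay 18 nt apart, about as far as its fractions.

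**Figure D4:**
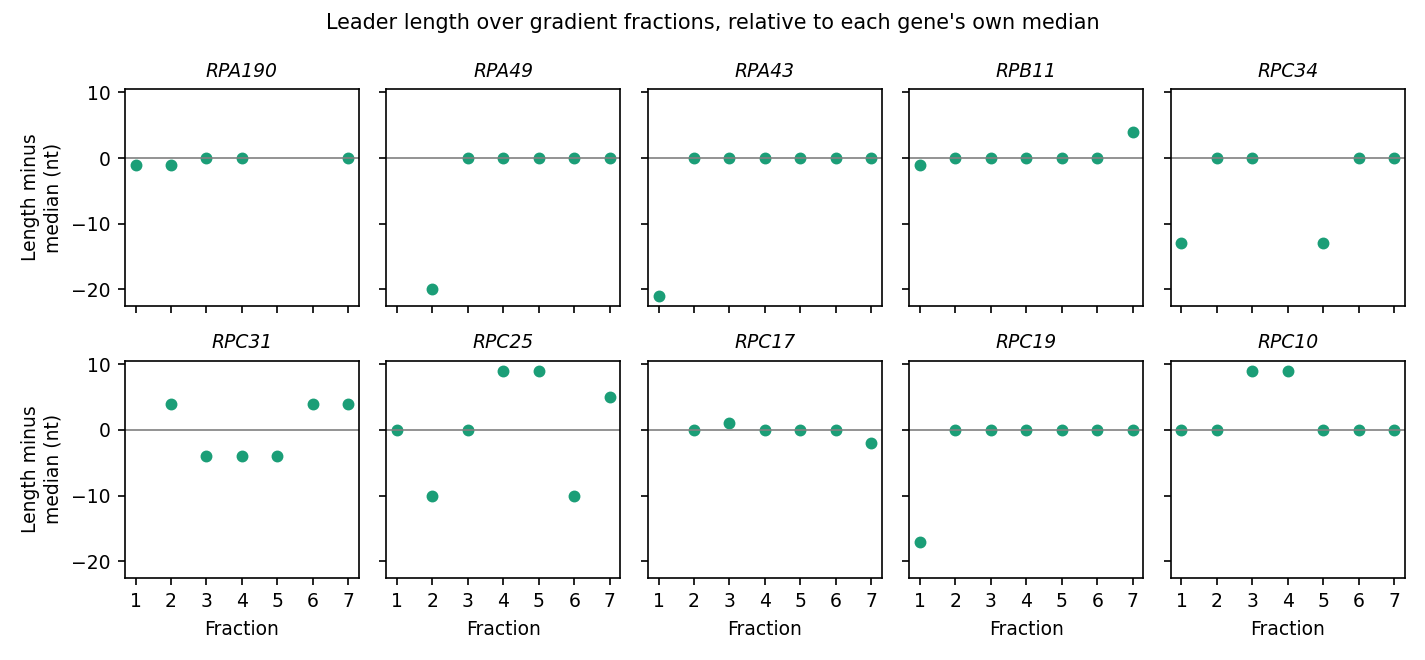
Leader length in each gradient fraction (horizontal axes) minus the median of the gene over fractions, in nt (vertical axes), for the 10 subunit genes called in at least 5 fractions with more than 1 length. RPA43 and RPC19 lie below their median in fraction 1 only, by 21 and 17 nt, and RPA49 in fraction 2 only, by 20 nt. RPA49 has no call in fraction 1.

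The Sigma library without pyrophosphatase served as the control for ends that ligate with no decapping. RPA12, with 18 nt with and 18 nt without the enzyme, and RPC19, with 42 nt with and 40 nt without it, were the subunit genes called there. They were 2 of the 29 with any call, against 4.48% of all ORFs, and 2 of 19 called with pyrophosphatase, against 9.08%. The other 17 subunit genes called with the enzyme had no call without it. The control library had 204 ORF calls in all, and abundance was unknown, so these calls do not show whether the ends carry caps.

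The subunit genes were also placed in the genome, in the R64 assembly (sacCer3). A divergent gene lay next upstream of 21 of the 31, against 48.3% of all protein-coding ORFs. The divergent pair RPA43 and RPA190 holds a subunit of the Pol I stalk and the largest subunit of Pol I. RPA43 lies on chromosome XV from 959202 to 960182 on the minus strand and RPA190 from 960987 to 965981 on the plus strand, with 804 bp between them. In Sigma their leaders began at 960248 and 960866, which left 617 bp between the starts. In TATL-seq they began at 960229 and 960866, 636 bp apart, and the S288C TL-seq lengths left 659 bp. The RPA190 start thus differed by at most 6 nt over all libraries, and the change between libraries lay on the RPA43 side. In S288C TL-seq, leaders took a median of 9.14% of the interval to the upstream gene over 25 subunit genes, against 10.5% over 3129 ORFs. The share in these subunit genes ran from 2.34% for RPC40 to 34.6% for RPC53 in S288C. None of the 25 reached into the upstream gene, against 0.7% of ORFs.

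**Figure D5:**
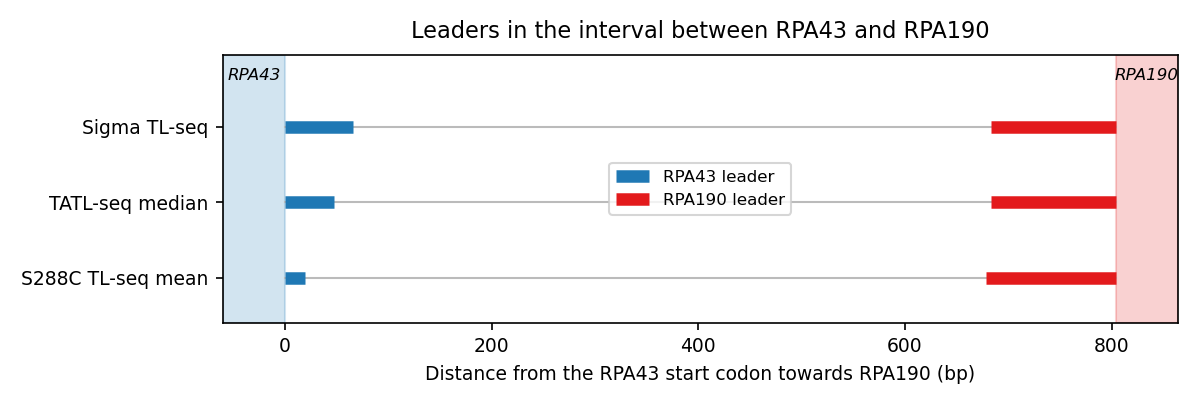
Leaders of RPA43 (blue, from the left) and RPA190 (red, from the right) drawn to scale in the 804 bp between their start codons; the horizontal axis is the distance in bp from the RPA43 start codon. Rows are Sigma TL-seq, the TATL-seq median and the S288C TL-seq mean; the RPA43 leader is 66, 47 and 19 nt long and that of RPA190 121, 121 and 126 nt.

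Initiation factors and a regulator, the Pol III repressor gene MAF1, were described for comparison, from lists of 8 Pol I, 18 Pol II and 9 Pol III genes and SPT15, the TATA-binding protein gene used by all of them. A call was made for 31 of these 36 genes, against the 75.8% of protein-coding ORFs given above, and SPT15 had none. The S288C medians were 60 nt for Pol I factors (n = 5), 31 nt for Pol II factors (n = 13) and 37 nt for the Pol III list (n = 5). The Pol I value is that of RRN7, with 39 and 81 nt in the replicates, and the median over the same 5 genes was 49 nt in replicate 1 and 81 nt in replicate 2. The longest and shortest were RRN9 at 142 nt and RRN5 at 24.5 nt (34 and 15 nt in the replicates) for Pol I. For Pol II they were RAD3, a TFIIH helicase gene, at 119 nt and TFG1, of TFIIF, at 11 nt. For Pol III they were MAF1 at 113.5 nt and BRF1, of TFIIIB, at 15 nt.

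Between Sigma and S288C, 9 genes of these lists could be compared, MAF1 among them. Of these, 2 were longer and 2 shorter in Sigma, against the background shares of 13.2% and 27.6% given above. MAF1 is also counted in the totals that follow. RRN3, whose protein binds RPA43 to recruit Pol I, had 113 nt in Sigma, 96, 112, 96, 112, 112, 110 and 112 nt in fractions 1 to 7, and 92 nt in both S288C replicates. For RRN3 the S288C length was the lowest, near the 96 nt of fractions 1 and 3. RRN10, for a subunit of the upstream activation factor, had 62 nt in Sigma and 49 nt in both S288C replicates. SUA7, for TFIIB, had 33 nt in Sigma and 45 nt in both S288C replicates, and TOA2, of TFIIA, had 19 and 31 nt. Against TATL-seq, RRN10 (62 nt in Sigma and 44 nt in TATL-seq) was longer and TFB3, of TFIIH (106 and 118 nt), shorter in Sigma, 1 of 12 each, against 10.5% and 9.39% of all ORFs. TATL-seq was longer than S288C TL-seq for 3 of 22, RRN3, TFB1 and RAD3, against 13.5% of all ORFs, with 112, 136 and 131.5 nt in TATL-seq and 92, 20.5 and 119 nt in S288C. It was shorter for 5 of 22, RRN9, SUA7, TOA1, TOA2 and TFC3, against 33.3%, with 127.5, 33, 32, 15 and 12 nt in TATL-seq and 142, 45, 54.5, 31 and 26 nt in S288C. TFB1 and TFC3 had a call in 1 fraction each, and the S288C replicates of TFB1, TOA1 and TFC3 lay at least 10 nt apart. Over fractions 7 of 14 genes of the lists had a range of 10 nt or more, against the 30.9% of all ORFs given above. They were RRN3, SUA7, TOA2, TFB3, TFB4, SSL2 and KIN28. The range was 16 nt for RRN3, 13 nt for SUA7 and KIN28, 15 nt for TOA2, 17 nt for TFB3, and 18 nt for TFB4 and SSL2.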

How the data were processed

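Leader lengths in nucleotides, as deposited by the authors, were used as they stand, 1 per gene and library, for 11 libraries. The labels' protocols describe poly(A) selection, alkaline fragmentation, phosphatase and then pyrophosphatase treatment (mock in the control) and ligation of a 5′ adaptor. Per the submitters' processing notes, reads were mapped with Bowtie, and sacCer3 is named for 9 libraries. Not given in the sources used here are the annotation, the way 1 length was made per gene, and the build behind the S288C TL-seq lengths.

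Symbols and positions come from RefSeq's R64 gene table, in which all 4551 ORF names were found by locus tag. Samples were grouped by their labels. The TATL-seq length is the median over fractions with a call, and S288C lengths are the mean of 2 replicates. Leader starts were counted from the ORF end nearest the promoter, assuming no intron in the leader. The members and lists were chosen with earlier results of these data known, so counts and medians are set beside all ORFs without tests. Every subunit gene is named; of the initiation factors, those that differ between Sigma, TATL-seq and S288C or over fractions and the longest and shortest of each list, with SPT15 and, chosen after its values were seen, RRN7. Alternatives covered the thresholds, replicates, fractions and centring. Some of the rules were run on simulated data, as a check of the code only. No rate of false or missed calls is given for differences near the threshold, so the check does not bear on the differences reported. Work was done in Python 3.11.15 with pandas 2.3.3. The planned searches for upstream AUGs and promoter motifs were not made, since no sequence was used here.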

Additional observations from a re-analysis of the deposited data

How the results depend on the processing

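Of 74 alternative values, 53 stayed within the limits set (1.5 times a count, or 1 SD between replicates for a median). The limit for a median differed between sets, from 0 nt in Pol II to 7.07 nt over all subunit genes. Counts were compared by size alone, so a count that stayed can hold different genes. Against the S288C medians of 42 nt in Pol I, 66.5 nt in Pol II, 44 nt in Pol III and 44.5 nt in shared subunits, TATL-seq gave 47 nt in Pol I, 96 nt in Pol II and 37 nt in shared subunits. Sigma gave 56, 67, 49.5 and 32 nt in the 4 classes. With only replicates within 10 nt the Pol III median was 32 nt, because RPC25, with 47 and 65 nt, dropped out. Without S288C replicate 1 the Pol II median stayed at 66.5 nt. Without replicate 2 it was 95 nt, because RPB7, called at 193 nt in replicate 1 only, then entered.

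At 5 and 20 nt in place of 10 nt, 7 and 2 subunit genes differed between Sigma and S288C (4 at 10 nt), 10 and 3 between TATL-seq and S288C (6), and 8 and 2 had such a range over fractions (5). At 20 nt 0 differed between Sigma and TATL-seq (3) and 0 between replicates (2), and 1 had fraction 1 apart (3). The range count was 3 for genes called in all 7 fractions, and leaving out 1 fraction gave 3 to 5. By TATL-seq 1 subunit gene had a leader under 12 nt (2 in S288C). Beyond the genes named above as entering or leaving a median, the cause of these shifts was not tested. No paired analysis was possible because each Sigma condition and each fraction had only 1 library. Upstream AUG and promoter motif alternatives were not run. Read depth is unknown, which limits every length.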

Other observations

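Several subunit genes share their upstream interval with a divergent gene outside the group. RPO26, of all 3 enzymes, lies 234 bp from PZF1, for the Pol III factor TFIIIA, and the S288C leaders of 9 nt and 28 nt left 197 bp between the starts. RPC53 lies 324 bp from SAS10, a gene of ribosomal RNA processing, and the starts were 213 bp apart in TATL-seq and 185 bp apart in S288C TL-seq. RPB9 lies 259 bp from MNP1, a mitochondrial ribosomal protein gene, and the starts were 186 bp apart in Sigma and 185 bp apart in S288C TL-seq. RPA14 lies 524 bp from the cyclophilin gene CPR1, and the starts were 438 bp apart in Sigma, 440 bp in TATL-seq and 440 bp in S288C TL-seq. RPC82 lies 339 bp from QCR2, of respiratory complex III, with 245 bp between the starts in TATL-seq and 247 bp in S288C TL-seq. These pairs were chosen after their values were seen.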
